A study of Mus musculus with 8 samples.

Results

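Immunoglobulin constant-region genes were followed across maternal and recipient cells of pups given an intrauterine transplantation (IUT) of bone marrow cells. The 10 genes were chosen by name from the 52784 genes of the count table. They are the heavy-chain genes Ighm, Ighd, Ighg1, Ighg2b, Ighg2c, Ighg3, Igha and Ighe, the kappa light-chain gene Igkc and Jchain. All 10 were found, 8 had a count in at least 1 library, and Ighg1 and Ighe had 0 counts in all 8 libraries.

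The pups were F1 young, 1 week old, of CD11c-DTR dams mated to BALB/c males. These dams are C57BL/6 (B6) mice with a transgene for the diphtheria toxin receptor under the CD11c promoter, so that diphtheria toxin (DT) removes their dendritic cells (DC) for a short time. DC-depleted dams were given DT at 5 ng/g and DC control dams saline, on embryonic day 13. On embryonic day 14, 5000000 bone marrow mononuclear cells were injected into the liver of each fetus, from B6 mice (maternal donor, mIUT) or from BALB/c mice (paternal donor, pIUT). Uninjected pups were not given donor cells, and their dams had been given DT or saline in a division that the labels do not give. Trafficked maternal cells, of the B6 (CD11c-DTR) strain, were sorted by H2K-b and recipient F1 cells by H2K-d from pooled pups. Every F1 cell inherits both haplotypes, B6 donor cells carry H2K-b and BALB/c donor cells carry H2K-d. Maternal cells of mIUT pups and recipient cells of pIUT pups may therefore include donor cells, in a share that was not measured. Each origin gave 1 library per group (uninjected, DC control mIUT, DC control pIUT, DC-depleted pIUT), so that every difference below lies between 2 libraries and has no replicate check. The maternal and the recipient library of a group may come from the same pups, and the origins were not tested against each other.

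In a B cell the heavy-chain locus is cut and joined into a V(D)J exon, which is first spliced to the constant exons of Ighm. Mature naive B cells splice the same primary transcript also to Ighd and so carry IgM and IgD together. After activation, class switch recombination replaces Ighm and Ighd by a downstream Ighg, Ighe or Igha gene. Plasma cells secrete the product, and J chain joins IgM and IgA monomers into polymers.

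The 8 heavy-chain genes lie on the minus strand of chromosome 12 in GRCm39, in the order in which switching meets them. Ighm (113382178 to 113386350) comes first, Ighd (113370224 to 113379944) begins 6.41 kb downstream, and Ighg3, Ighg1, Ighg2b, Ighg2c, Ighe and Igha follow at 61.5, 92.2, 115, 134, 149 and 162 kb. Igkc (70703419 to 70703950) is on the plus strand of chromosome 6 and Jchain (88667668 to 88675750) on the minus strand of chromosome 5. The first 60 bases of the first constant exon (CH1) are shown for the heavy-chain genes that had more than 3 counts in any library, since reads are told apart by such stretches. The sequences are from the GENCODE transcripts of GRCm39, 5′ to 3′, and capitals in Ighg2b and Ighg2c mark the 5 bases at which these genes differ within the stretch.
Ighm, chr12:113386291-113386350: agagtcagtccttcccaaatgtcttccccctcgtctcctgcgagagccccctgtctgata
Ighd, chr12:113379885-113379944: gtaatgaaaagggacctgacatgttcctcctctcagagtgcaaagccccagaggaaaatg
Ighg3, chr12:113324793-113324852: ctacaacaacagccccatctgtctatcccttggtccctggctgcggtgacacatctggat
Ighg2b, chr12:113271494-113271553: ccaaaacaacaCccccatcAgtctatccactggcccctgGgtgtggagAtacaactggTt
Ighg2c, chr12:113252493-113252552: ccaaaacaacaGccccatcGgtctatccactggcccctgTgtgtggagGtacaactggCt
Igha, chr12:113223797-113223856: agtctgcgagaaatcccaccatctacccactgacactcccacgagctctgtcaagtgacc
Over the whole CH1 exon of 291 bases, Ighg2b and Ighg2c were identical at 87.6% of positions, and the pairs of the 4 Ighg genes ranged from 78.3% to 88.3%. Counts of single Ighg genes are therefore uncertain where the estimate could divide reads among them. BALB/c mice carry an IgG2a gene in place of Ighg2c, which was not analysed here.

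Total counts on genes ran from 38543457 to 47965130 per library. Among genes at 10 CPM (counts scaled to a common normalized library size) or more in each of the other 7 libraries, 9.51% were under 1 CPM in the recipient uninjected library and 4.86% in maternal DC control mIUT, against 1.26% or less in the other 6. The labelled origin was checked with 4 Y-linked genes (Ddx3y, Uty, Kdm5d and Eif2s3y), which a dam's cells lack, and with H2-Ea, which B6 mice do not transcribe. The maternal uninjected library had 0 counts of all of these. The maternal DC control mIUT, DC control pIUT and DC-depleted pIUT libraries had 4572, 1481 and 989 Y-linked counts, and 311, 0 and 178 counts of H2-Ea. These 3 libraries thus held RNA of cells that were not maternal, in a share that was not measured, and every maternal comparison below rests on them. The recipient libraries had 3128, 3361, 2590 and 1427 Y-linked counts in the order uninjected, DC control mIUT, DC control pIUT, DC-depleted pIUT. The recipient uninjected library was unlike the other 3, with 0 counts of Ddx3y and Kdm5d and 27 counts of H2-Ea against 339, 2728 and 3749, although H2-Aa, another MHC class II gene, was at 805 CPM there against 43.0, 164 and 220 CPM. Every recipient comparison with uninjected pups rests on that library, and the part of this difference in the results was not tested. B cells were present in all 8 libraries by Cd79a (313 to 96352 counts), which encodes a part of the B-cell receptor. Of 10 B-cell genes, 10, 6, 5 and 7 were over 3 counts in maternal uninjected, DC control mIUT, DC control pIUT and DC-depleted pIUT, and 8, 9, 9 and 10 in the recipient libraries in the same order. Pax5, a defining transcription factor of B cells, was at 0 in all 3 maternal IUT libraries and in recipient DC control mIUT and pIUT.

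IgM was the most abundant heavy-chain RNA in every library. Counts of Ighm in maternal cells were 252174 without injection, 13746 after DC control mIUT, 6069 after DC control pIUT and 1051 after DC-depleted pIUT, or 6480, 355, 120 and 31.8 CPM. In recipient cells it had 60437, 3108, 20882 and 22225 counts, or 1250, 108, 462 and 405 CPM. The maternal uninjected library was thus the highest and maternal DC-depleted pIUT the lowest of the 8, and each uninjected library stood above the 3 IUT libraries of its origin. Against uninjected pups, maternal Ighm was 18.2-fold lower after DC control mIUT (95% counting interval 17.9 to 18.6), 54.0-fold lower after DC control pIUT (52.6 to 55.4) and 204-fold lower after DC-depleted pIUT (192 to 217). Recipient Ighm was 11.5-fold (11.1 to 11.96), 2.70-fold (2.66 to 2.75) and 3.08-fold lower (3.04 to 3.13), in the same order. All intervals here cover counting error only, since the reads carry no molecular identifiers. In these bulk libraries, fewer B cells and less immunoglobulin RNA per B cell cannot be told apart.

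IgD was lower by more than IgM after IUT. Ighd had 40154, 91, 1 and 61 counts in maternal uninjected, DC control mIUT, DC control pIUT and DC-depleted pIUT, and 16365, 14, 341 and 339 in the recipient libraries. Set against Ighm in the same library, there were 159 Ighd counts per 1000 Ighm counts in maternal uninjected cells (interval 158 to 161) and 271 in recipient uninjected cells (266 to 275). After IUT the ratio was 6.62 (5.33 to 8.13), 0.165 (0.00417 to 0.918) and 58.0 (44.1 to 75.2) in the maternal libraries. It was 4.50 (2.46 to 7.57), 16.3 (14.6 to 18.2) and 15.2 (13.7 to 17.0) in the recipient libraries. No interval of an IUT library reached that of either uninjected library. The DC-depleted pIUT libraries stood apart by origin, with the highest ratio of the maternal IUT libraries and a ratio within the counting interval of DC control pIUT in recipient cells. As a fold change, Ighd was 439-fold lower (358 to 545) after DC control mIUT and 558-fold lower (435 to 730) after DC-depleted pIUT in maternal cells. For the 1 count in maternal DC control pIUT the ratio of the counts as they stand was 52194-fold, with an interval of 9367 to 2061611, and with that count set to the floor of 3 the log2 fold change was −14.09. Recipient cells gave 689-fold (413 to 1268), 44.8-fold (40.3 to 50.0) and 54.7-fold lower values (49.1 to 61.1).

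**Figure D1:**
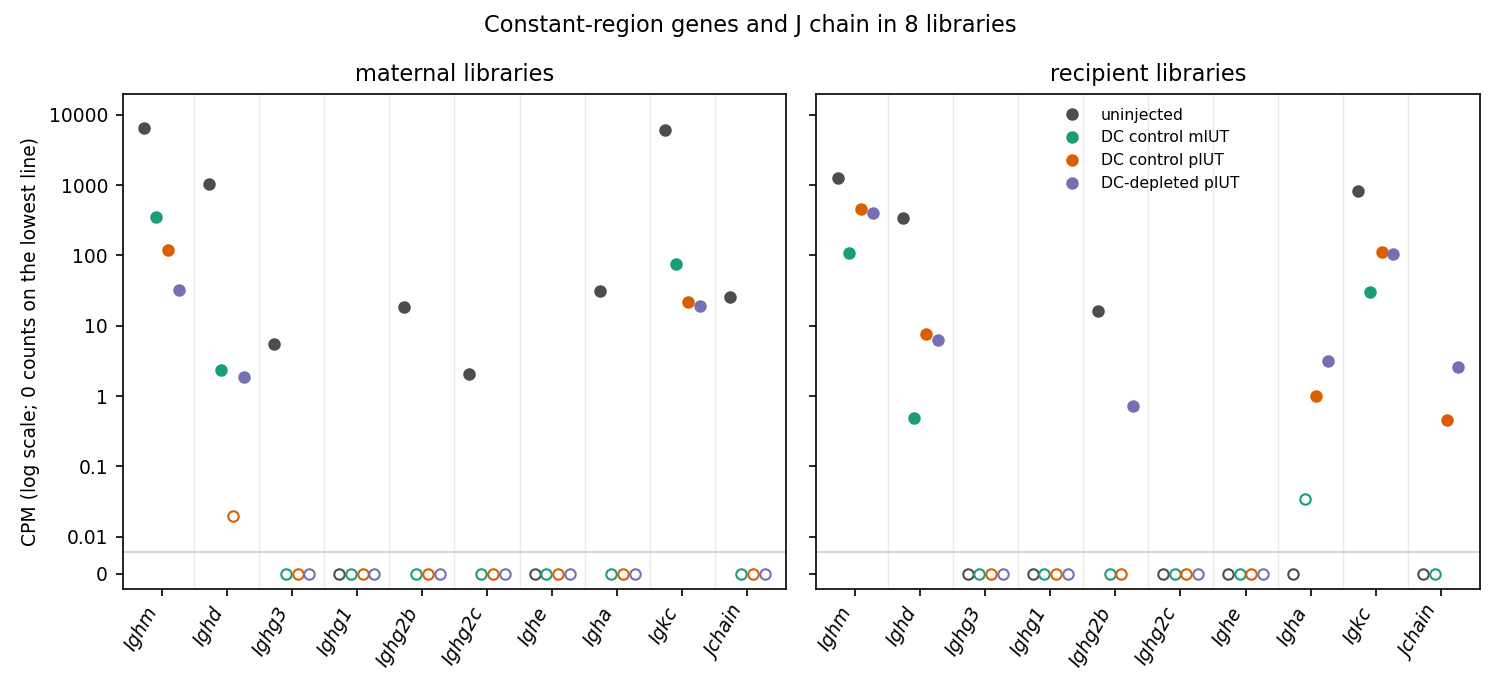
Level of each gene in CPM on a logarithmic axis, in the 4 maternal and the 4 recipient libraries. Each point is 1 pooled library, open points have 3 counts or fewer, and points on the lowest line have 0 counts; Ighm is between 31.8 and 6480 CPM in all 8 libraries, while Ighg3 and Ighg2c are above 0 in maternal uninjected cells alone.

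Switched isotypes were rare everywhere, and which of them were present differed between the libraries. In maternal uninjected cells Igha had 1202 counts, Ighg2b 721, Ighg3 214 and Ighg2c 81. Together they made 0.753% of the heavy-chain constant counts (Wilson 95% interval 0.722% to 0.785%). All 4 were at 0 in each of the 3 maternal IUT libraries. At the smaller heavy-chain totals there, 13837, 6070 and 1112 counts, 0 counts allow a share of up to 0.0217%, 0.0494% and 0.270%. The value in uninjected maternal cells lies above each of these limits, which cover counting error only. The IgM clonotype reads of these 3 libraries held few sequences, 7, 5 and 15 distinct ones. By clonotypes, given below, a difference from maternal uninjected cells was not detectable.

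In recipient uninjected cells Ighg2b was the one switched isotype with a count. Its 772 counts were 0.995% of the heavy-chain counts (0.928% to 1.07%). Igha, the heavy chain of the antibody of mucosal surfaces and milk, had 0, 1, 46 and 174 counts in recipient uninjected, DC control mIUT, DC control pIUT and DC-depleted pIUT cells. Its share was 0.216% (0.162% to 0.288%) after DC control pIUT and 0.764% after DC-depleted pIUT (0.659% to 0.886%). BALB/c donor cells carry H2K-d, by which recipient cells were sorted, and the paper found donor cells in marrow and blood of pIUT pups. The part of donor RNA in these Igha counts was not tested. Ighg2b had 0 counts in recipient DC control mIUT and pIUT and 40 in DC-depleted pIUT. All switched isotypes together made 0.995%, 0.0320%, 0.216% and 0.940% of heavy-chain counts in the recipient libraries, so that the intervals of uninjected and DC-depleted pIUT cells overlapped although the first held Ighg2b and the second mainly Igha. By the clonotype reads described below the shares were 2.06% (1.84% to 2.31%) and 0.419% (0.228% to 0.770%), and these intervals did not overlap. Recipient uninjected cells, the library with the most genes missing, had Ighg2b but neither Igha nor Jchain, and the part of the missing genes in this was not tested.

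**Figure D2:**
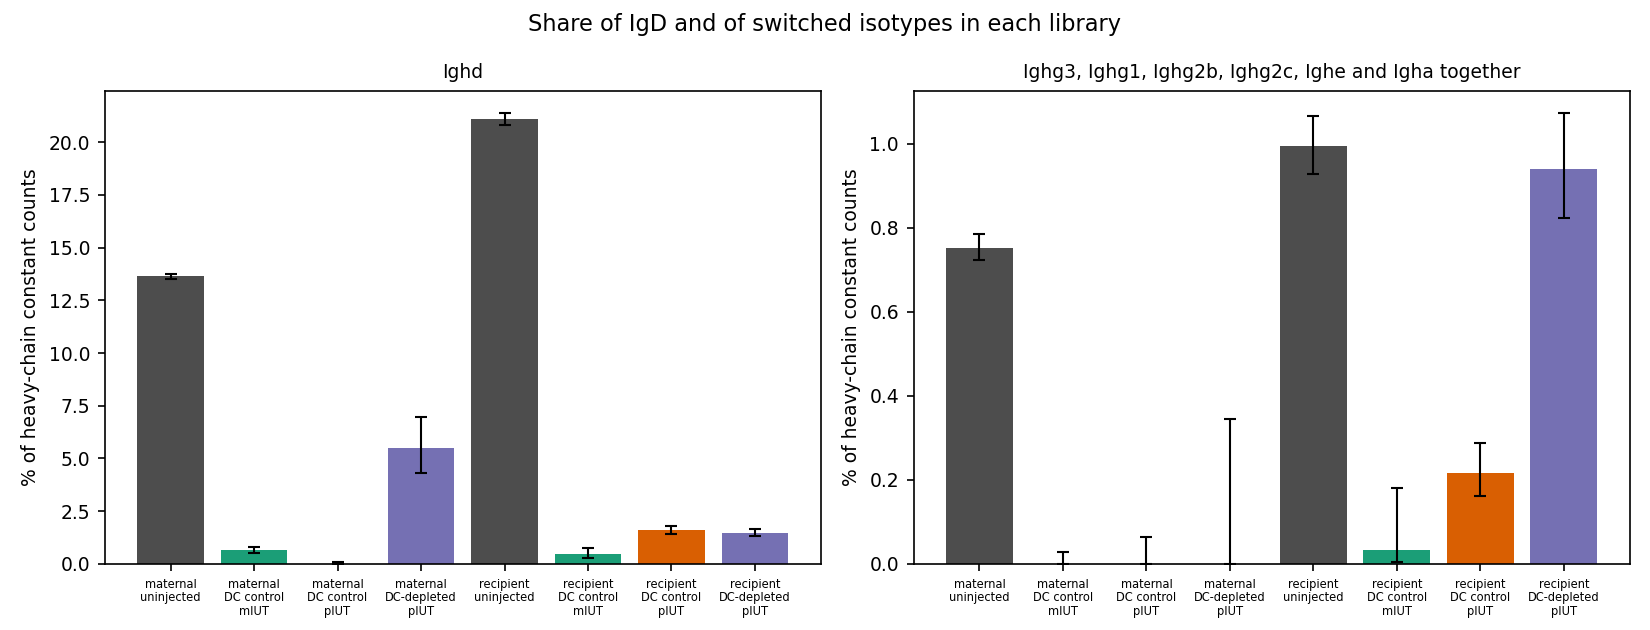
Share of Ighd (left) and of all switched isotypes (right) in the heavy-chain constant counts of each pooled library, in percent, with Wilson 95% intervals for counting error. Ighd is 13.6% and 21.1% in the uninjected libraries and 5.49% or less after IUT. The switched share is 0 in the 3 maternal IUT libraries, 0.940% in recipient DC-depleted pIUT and highest in recipient uninjected cells, at 0.995%.

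Jchain followed Igha. It had 991 counts in maternal uninjected cells and 0 in the other 3 maternal libraries, and 0, 0, 21 and 142 counts in recipient uninjected, DC control mIUT, DC control pIUT and DC-depleted pIUT cells. Per 1000 heavy-chain counts this was 3.36 in maternal uninjected cells (3.16 to 3.58), 0.987 in recipient DC control pIUT (0.611 to 1.51) and 6.23 in recipient DC-depleted pIUT (5.25 to 7.35). The recipient DC-depleted pIUT library therefore held the most Jchain for its heavy-chain RNA. The part of donor RNA in the recipient pIUT counts was not tested for Jchain either. The 0 counts of recipient uninjected cells allow up to 0.0387 per 1000 (3 counts). Those of maternal DC-depleted pIUT, at its few heavy-chain counts, allow up to 2.70, and the exact upper bound of 3.32 there reaches into the interval of maternal uninjected cells.

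Igkc, which encodes the constant part of the kappa light chain, had 236139, 2925, 1095 and 635 counts in the maternal libraries and 39996, 869, 5069 and 5769 in the recipient libraries, in the same order as above. Each IUT library was below the uninjected library of its origin. Igkc was 80.3-fold (77.5 to 83.3), 280-fold (264 to 298) and 316-fold (292 to 342) lower in the maternal IUT libraries, and 27.3-fold (25.5 to 29.2), 7.37-fold (7.16 to 7.59) and 7.86-fold (7.64 to 8.08) lower in the recipient ones. These folds were larger than those of Ighm in every comparison with uninjected cells. There were 0.802 Igkc counts per heavy-chain count in maternal uninjected cells (0.797 to 0.806) and 0.516 in recipient uninjected cells (0.509 to 0.522). After IUT the ratio was 0.211, 0.180 and 0.571 in the maternal libraries and 0.278, 0.238 and 0.253 in the recipient libraries. Maternal DC-depleted pIUT (0.517 to 0.630) lay apart from the other 5 IUT libraries, whose intervals spanned 0.169 to 0.300.

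The 3 lambda constant genes, Iglc1, Iglc2 and Iglc3, were set beside Igkc: 3 of 3 were at least 4-fold lower in each of the 6 comparisons with uninjected cells, where 34.3%, 22.5% and 24.1% of all genes were lower in maternal and 16.1%, 12.2% and 9.98% in recipient cells. In maternal DC control pIUT, Iglc1 and Iglc2 were at 0 and could only be called lower. Igkc made 78.7% of the kappa and lambda constant counts in maternal uninjected cells and 81.2% in recipient uninjected cells. Of the IUT libraries, 5 lay between 70.6% and 83.0%. Maternal DC control pIUT was at 95.9% (94.6% to 96.9%), with 1095 counts of Igkc, 47 of Iglc3 and 0 of Iglc1 and Iglc2. That library also had the fewest heavy-chain clonotypes, as given below.

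**Figure D3:**
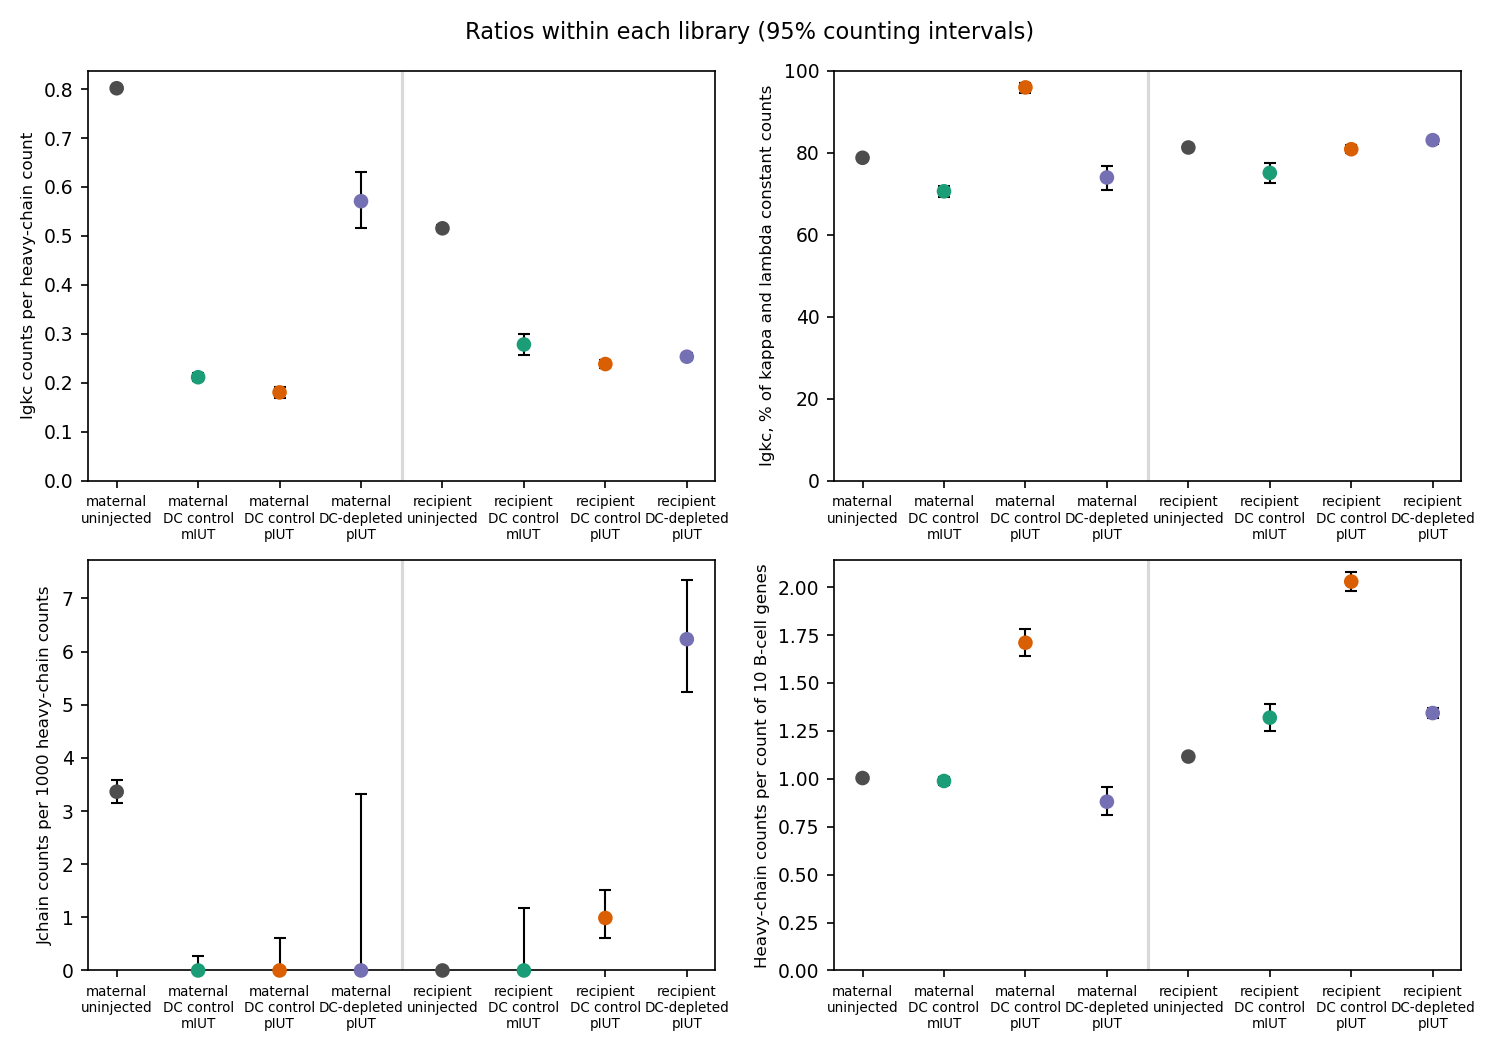
Ratios within each pooled library, with 95% counting intervals: Igkc counts per heavy-chain count, Igkc in percent of kappa and lambda constant counts, Jchain counts per 1000 heavy-chain counts, and heavy-chain counts per count of 10 B-cell genes. Igkc per heavy chain is 0.802 and 0.516 in the uninjected libraries and 0.180 to 0.571 after IUT, and Jchain is highest in recipient DC-depleted pIUT.

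As the libraries differed widely, the members were read against all genes tested, those with more than 3 counts in either library. A gene was called where it was at least 4-fold higher or lower. In maternal cells 8 of 8 members tested were lower in DC control mIUT, against 34.3% of all genes. In DC control pIUT 8 of 8 were lower against 22.5% and in DC-depleted pIUT 8 of 8 against 24.1%. In the same comparisons 16.9%, 22.9% and 21.8% of all genes, and 0 members, were higher. Of the 8 members, Ighg2b, Ighg2c, Ighg3, Igha and Jchain (and Ighd in DC control pIUT) entered only through the uninjected library and could not have been called higher, so these counts are a description. The members over 3 counts in both libraries were Ighm, Igkc and, outside DC control pIUT, Ighd, and each was lower by the folds given above. The median log2 fold change of the 8 members was −7.11, −8.21 and −7.90, against −0.60, 0.00 and 0.06 over all genes tested. Bounds enter these medians, since Ighg2b, Ighg2c, Ighg3, Igha and Jchain had 0 counts after IUT. For Igha the bounds were at least 399-fold, 521-fold and 340-fold lower, and for Jchain at least 329-fold, 429-fold and 280-fold lower, with the floor of 3 counts per library. For Ighg2b they were at least 239-fold, 312-fold and 204-fold lower. The 3 comparisons share the uninjected library.

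In recipient cells fewer members were tested, and the calls went in both directions. In DC control mIUT, 4 of 4 members (Ighm, Ighd, Ighg2b and Igkc) were lower, against 16.1% of all genes, and 0 were higher, against 42.6%. In DC control pIUT 3 of 6 (Ighd, Ighg2b and Igkc) were lower against 12.2% of all genes, and 2 of 6 (Igha and Jchain) were higher against 41.7%. In DC-depleted pIUT 3 of 6 (Ighd, Ighg2b and Igkc) were lower against 9.98%, and 2 of 6 (Igha and Jchain) were higher against 42.9%. Here the medians were −6.01, −2.16 and −2.30 for the members and 1.26, 1.13 and 1.23 for all genes tested. For Igha the bounds were at least 16.4-fold higher after DC control pIUT and at least 51.2-fold higher after DC-depleted pIUT, and for Jchain at least 7.496-fold and at least 41.8-fold higher. With a floor of 10 counts the Jchain value after DC control pIUT, from 21 counts, was 1.17 on the log2 scale and under the threshold. The 2 of 6 members that were higher do not exceed the background, and both entered only through the pIUT library. Ighg2b likewise entered only through the uninjected library in DC control mIUT and pIUT. Ighg2b was at least 153-fold and at least 240-fold lower after DC control mIUT and pIUT, and 21.8-fold lower after DC-depleted pIUT (15.9 to 30.9).

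DC-depleted and DC control pIUT were then compared with each other. In maternal cells 3 members could be compared, and 1 of 3 was higher, Ighd with 61 against 1 count (a ratio of 93.4-fold, 16.2 to 3751, or a log2 fold change of 4.96 with the 1 count set to 3), where 24.4% of all genes were higher. Ighd entered only through the DC-depleted library and could not have been called lower, so the count of higher members is a description. None of the 3 was at least 4-fold lower, against 26.3% of all genes, although Ighm was 3.77-fold lower (3.53 to 4.03), close to the threshold. Igkc was 1.13-fold lower (1.02 to 1.24). In recipient cells 2 of 6 members were higher, against 13% of all genes, and 0 were lower, against 6.52%. These were Ighg2b, with 40 against 0 counts (at least 10.99-fold), and Jchain, with 142 against 21 (5.55-fold, 3.51 to 9.28). Ighg2b entered only through the DC-depleted library and could only be called higher, so the recipient count is a description. With a floor of 10 counts Ighg2b was at 1.72 on the log2 scale and under the threshold. Igha was 3.11-fold higher (2.24 to 4.41) and under the threshold. Ighm and Igkc were 1.14-fold (1.12 to 1.16) and 1.07-fold lower (1.03 to 1.11), and these directions turned when libraries were scaled by their totals alone.

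**Figure D4:**
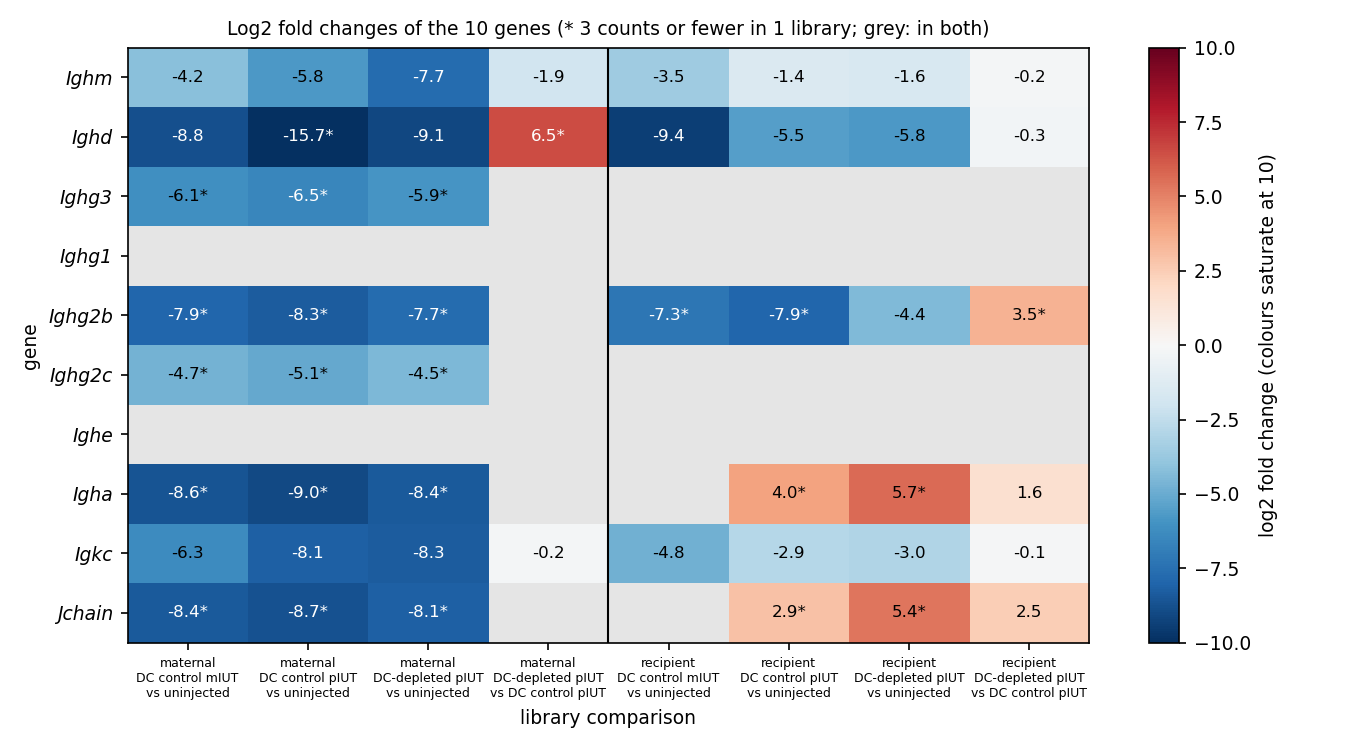
Log2 fold change of each gene in the 8 library comparisons, negative where the first-named library is lower. Asterisks mark values in which 1 of the libraries had 3 counts or fewer, grey cells had 3 or fewer in both, and colours saturate at 10; the first 3 columns hold no positive value, and Igha and Jchain are positive in the recipient pIUT columns.

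Heavy-chain RNA was set beside other RNA of B cells. The 8 heavy-chain genes summed to 7569, 357, 120 and 33.7 CPM in the maternal libraries and to 1604, 109, 471 and 416 CPM in the recipient libraries. The 10 B-cell genes summed to 7542, 362, 70.2 and 38.2 CPM and to 1437, 82.6, 232 and 310 CPM. The heavy-chain counts per B-cell gene count were 1.00, 0.989, 1.71 and 0.880 in the maternal libraries. In recipient cells the ratio was 1.12, 1.32, 2.03 and 1.34. Both DC control pIUT libraries thus held the most heavy-chain RNA for their B-cell genes in their origin. In maternal cells 9, 9 and 10 of the 10 B-cell genes were at least 4-fold lower than in uninjected cells in DC control mIUT, DC control pIUT and DC-depleted pIUT, against 34.3%, 22.5% and 24.1% of all genes. Of these, 4, 5 and 3 genes were at 3 counts or fewer in the IUT library and could only be called lower, and the counts over this and the lists that follow are descriptions for that reason. In recipient cells 7 of 9, 5 of 9 and 5 of 10 tested were lower, against 16.1%, 12.2% and 9.98%, and 2, 2 and 2 higher, against 42.6%, 41.7% and 42.9%. The 6 T-cell genes were also lower in the maternal IUT libraries, at 1673, 440, 107 and 378 CPM in sum, with 3, 6 and 3 of 6 at least 4-fold lower. Cd79a was at 2476, 107, 8.72 and 9.48 CPM in the maternal libraries and 538, 17.8, 49.0 and 56.9 CPM in the recipient ones. Ms4a1, the CD20 gene, was at 1230, 0.0258, 0.138 and 4.603 CPM and at 236, 17.96, 61.5 and 35.5 CPM.

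Genes of early B-cell stages were examined next. Igll1 encodes a part of the surrogate light chain, which pairs with the heavy chain before a light chain is made, and Rag1, Rag2 and Dntt carry out V(D)J recombination. Igll1 had 0 counts in both uninjected libraries. It had 2480, 329 and 117 counts in the maternal IUT libraries and 43, 17 and 1917 in the recipient ones. In recipient cells 5 of 5 genes of this list were at least 4-fold higher than in uninjected cells in each IUT library, with medians of 5.30, 8.77 and 7.33 on the log2 scale against 1.26, 1.13 and 1.23 for all genes, of which 42.6%, 41.7% and 42.9% were higher. Igll1, Vpreb3, Rag1 and Rag2 were at 0 in recipient uninjected cells, the library with the most genes missing. These 4 could not have been called lower, so the count and the medians, which rest on bounds, are a description. In maternal cells 3 of 5, 2 of 4 and 3 of 5 were higher, against 16.9%, 22.9% and 21.8% of all genes, and 1, 2 and 1 lower, against 34.3%, 22.5% and 24.1%, and here Igll1, Rag1 and Rag2 were at 0 in uninjected cells and could only be called higher. Vpreb3, which is also made in later B cells, was at 52.1, 57.3, 8.28 and 3.63 CPM in the maternal libraries and 0, 2.44, 2.04 and 18.2 CPM in the recipient libraries. Dntt reached 100 CPM in recipient DC control pIUT, where the 6 T-cell genes, whose cells share V(D)J recombination, were also highest at 3362 CPM in sum. The part of T-cell precursors in the list was not tested.

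**Figure D5:**
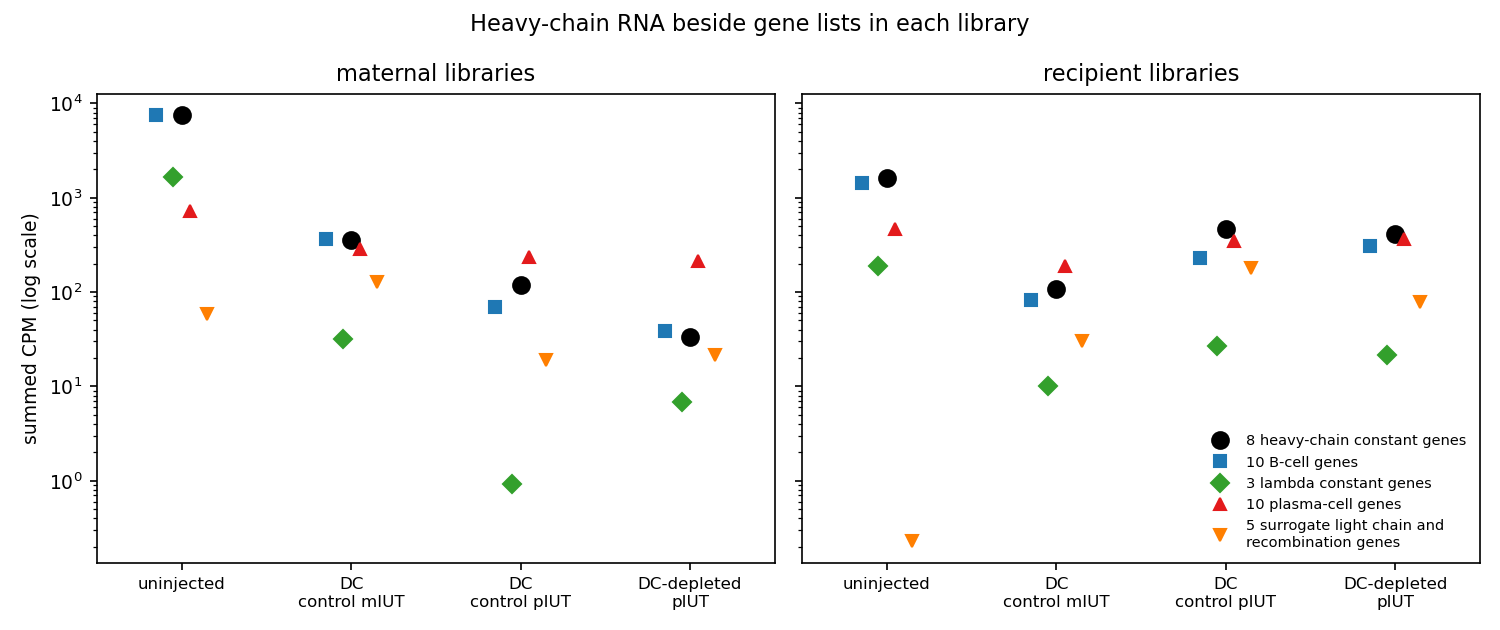
Summed CPM on a logarithmic axis of the 8 heavy-chain constant genes and of 4 other gene lists in each pooled library, at slightly shifted positions. Heavy-chain and B-cell sums stay together between 33.7 and 7569 CPM, while the surrogate light chain and recombination genes are lowest in recipient uninjected cells.

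Plasma-cell genes were set beside Jchain. Summed CPM of the 10 genes was 722, 284, 237 and 214 in the maternal libraries and 469, 190, 345 and 367 in the recipient libraries. Most of it came from Xbp1, a secretory transcription factor that many cells express (79.1 to 253 CPM), and from Mzb1 (4.61 to 394 CPM) and Creld2 (15.1 to 105 CPM), which act in the endoplasmic reticulum. In maternal cells 7, 6 and 5 of 9 genes tested were lower than in uninjected cells, against 34.3%, 22.5% and 24.1% of all genes, and 0 higher, against 16.9%, 22.9% and 21.8%. Of the genes tested, 5, 3 and 3 were at 3 counts or fewer in the IUT library and could only be called lower. In recipient cells 2 of 6, 4 of 9 and 5 of 9 were higher, against 42.6%, 41.7% and 42.9% of all genes, and 3, 1 and 0 lower, against 16.1%, 12.2% and 9.98%, and 4 of 10 were higher and 0 lower in DC-depleted than in DC control pIUT, against 13% and 6.52% of all genes. All those that were higher than in uninjected cells (Irf4 and Sdc1 in each, with Derl3 and Eaf2 in both pIUT libraries and Prdm1 in DC-depleted pIUT) were at 0 in recipient uninjected cells and could only be called higher. Prdm1, the master regulator of plasma cells, had 281 counts in maternal uninjected cells, 91 in recipient DC-depleted pIUT and 19 in maternal DC control pIUT, and 0 in the other 5 libraries. The first 2 of these are also the libraries with the most Jchain and Igha. Other plasma-cell genes were highest in libraries with 0 counts of Jchain and Igha, Sdc1 in maternal DC control pIUT (16.3 CPM) and Fkbp11 in maternal DC-depleted pIUT (59.1 CPM).

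Genes of class switching were mostly repair genes that dividing cells share. Msh6, a mismatch repair gene, was at 9.84 CPM in maternal uninjected cells, at 0.310 CPM in recipient uninjected cells and at 125 CPM in recipient DC control pIUT. Of the 7, 8 and 8 genes of this list that were tested, 0, 2 and 1 were at least 4-fold higher and 5, 2 and 3 lower in maternal DC control mIUT, DC control pIUT and DC-depleted pIUT than in uninjected cells, where 16.9%, 22.9% and 21.8% of all genes were higher and 34.3%, 22.5% and 24.1% lower. In recipient cells 5 of 8, 4 of 7 and 4 of 7 were higher, against 42.6%, 41.7% and 42.9% of all genes, and 2, 1 and 0 lower, against 16.1%, 12.2% and 9.98%.

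The constant gene that MiXCR assigned to each IGH clonotype gave another readout of isotype from the same reads. A clonotype is a line of the deposited table, with its CDR3, the joined segment that varies between B cells. Several lines can hold the same CDR3, so that counts and shares of clonotypes can include a rearrangement more than once. IGH clonotypes with a constant gene numbered 2052, 12, 7 and 21 in the maternal libraries and 51, 72, 217 and 609 in the recipient libraries. IGHM was assigned to 1658, 12, 7 and 19 of the maternal clonotypes and 39, 71, 209 and 596 of the recipient clonotypes. IGHD was assigned to 381, 0, 0 and 2 and to 10, 1, 8 and 10. Switched constant genes were found in 13 of 2052 clonotypes of maternal uninjected cells (0.634%, interval 0.371% to 1.08%), 2 of 51 of recipient uninjected cells (3.92%, 1.08% to 13.2%, both with 1 CDR3) and 3 of 609 of recipient DC-depleted pIUT (0.493%, 0.168% to 1.44%). They were absent from the lists of the other 5 libraries. With 12, 7 and 21 clonotypes, 0 switched clonotypes allow shares up to 25.0%, 42.9% and 14.3% in the maternal IUT libraries, so a difference from maternal uninjected cells was not detectable by clonotypes. In recipient DC control pIUT 0 of 217 clonotypes allow up to 1.38%, and no IGHA clonotype was listed beside its 46 Igha counts.

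The switched clonotypes were few. The largest of each isotype are shown by their CDR3 in the library concerned, 5′ to 3′, with the first and the last codon in capitals.
Maternal uninjected, IGHA, IGHV1-62-3 and IGHJ3, 199 reads: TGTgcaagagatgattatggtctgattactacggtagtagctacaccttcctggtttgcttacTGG
Maternal uninjected, IGHG2B, IGHV5-6 and IGHJ2, 54 reads: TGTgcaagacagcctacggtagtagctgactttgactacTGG
Maternal uninjected, IGHG2C, IGHV6-3 and IGHJ3, 39 reads: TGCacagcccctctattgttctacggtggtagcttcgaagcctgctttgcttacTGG
Recipient uninjected, IGHG2B, IGHV7-3 and IGHJ2, 290 reads: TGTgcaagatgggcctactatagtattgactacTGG
Recipient DC-depleted pIUT, IGHA, IGHV1-4 and IGHJ3, 9 reads: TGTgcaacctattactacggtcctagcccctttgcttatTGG
All 290 IGHG2B reads of recipient uninjected cells had the same CDR3, so the Ighg2b of that library was seen in 1 rearrangement. The 10 IGHA reads of recipient DC-depleted pIUT had 2 CDR3 sequences, of 42 and 41 bases, and the second, with 1 read, was not in frame. Its IGHV1-4 and IGHJ3 segments were those of the first. Maternal uninjected cells had 7 IGHA, 2 IGHG2B and 1 IGHG2C sequences. Of the 7 IGHA sequences, 2 (of 4 and 1 reads) were not in frame, at 23 bases, and had the IGHV6-3 and IGHJ3 segments of a 24-base sequence with 38 reads, so that the number of separate rearrangements may be smaller. None of the switched CDR3 sequences was found on IGHM or IGHD in its own library, or in any other library. No IGHG3 clonotype was listed beside the 214 Ighg3 counts.

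The IGHM clonotype reads of the libraries held very different numbers of rearrangements. There were 1328, 7, 5 and 15 distinct IGHM CDR3 sequences in the maternal libraries, from 40185, 1336, 951 and 135 reads. In recipient cells there were 29, 61, 174 and 506, from 11823, 338, 1177 and 2329 reads. By the paper the pools held unequal numbers of pups, with the most in the uninjected group, and these numbers were not adjusted for pool size. In maternal DC control pIUT 1 clonotype (IGHV5-6 and IGHJ3) held 572 reads, 60.1% of all IGH reads. Most Ighm counts of that library had no clonotype read, so the part of this clonotype in the Ighm level was not measured. The clonotype is shown as the one with the largest share of IGH reads in any library.
Maternal DC control pIUT, IGHM: TGTgcaagacataggtacTGG
The largest clonotype of the other maternal libraries held 2.14% of IGH reads in uninjected cells, 16.5% after DC control mIUT and 12.3% after DC-depleted pIUT. In recipient cells it held 7.27%, 5.56%, 2.36% and 0.936%. Recipient uninjected cells therefore had more IGHM reads than the 3 recipient IUT libraries and fewer sequences. There were 15.9, 9.72, 15.7 and 12.8 IGHM clonotype reads per 100 Ighm counts in the maternal libraries and 19.6, 10.9, 5.64 and 10.5 in the recipient libraries. Recipient DC control pIUT was lowest by this measure and also had the fewest counts on Ighv segments, 3.06 per 100 heavy-chain counts against 5.94 to 15.9 in the other 7 libraries.

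The genes whose level over the 8 libraries was most like that of a member were sought among 11958 genes that reached 10 CPM, without other immunoglobulin genes, by Pearson's r of log2(CPM + 1). For Ighm these were Tnfrsf18 (r = 0.985), Bcl2 (0.979), Cd74 (0.976) and Ifi209 (0.972). For Igkc they were Cd79a (0.979), Cd74 (0.978) and H2-Aa (0.977). Cd74 and H2-Aa act in antigen presentation by MHC class II, and Cd79a encodes a part of the B-cell receptor. For Jchain they were Rasgrp3 (0.996), Art2b (0.995), Smpdl3b (0.995) and Cd209a (0.992), and for Igha Smpdl3b (1.00), Cd209a (0.998), Art2b (0.994) and S1pr5 (0.990). The last group was at 0 in the libraries in which Jchain was at 0, and its r rests on maternal uninjected cells and the recipient pIUT libraries. The same 8 libraries, with their depth and completeness, enter every r, which is given as a description.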

How the data were processed

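RNA of sorted cells was measured in 8 pooled libraries, 1 per group. The table deposited by the authors holds raw estimated counts of each gene (nf-core RNA-seq pipeline, GRCm39, GENCODE). It is labelled as salmon output, though featureCounts is what the paper's methods give, and its fractional values were rounded here. The authors also deposited MiXCR tables of read counts per clonotype, made for random fragments without molecular identifiers. Of the value columns of the gene table, 0 were left out. The submitters' processing notes name bcl2fastq and StringTie.

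CPM used TMM factors of edgeR 4.0.16 in R 4.3.3. Log2 fold changes were taken from edgeR's exactTest with the study's dispersion setting, 0.4, and no p-value was computed across genes. For calls and medians, a library at 3 counts or fewer was set to 3. The fold is then printed as a bound if the count is 0, and as the ratio of the counts with its interval if the count is 1 to 3. The threshold was a fold of 4. The calculation was tested on simulated data. Shares have Wilson intervals and ratios exact binomial intervals, at 95%, computed with scipy 1.17.1 in Python 3.11.15. They cover counting error only, and depth was 38543457 to 47965130 counts. Gene positions came from a GENCODE annotation of GRCm39, with 97.99% of identifiers matched. The isotype of a clonotype is the best constant-gene hit.

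The members and gene lists were chosen with earlier results of these data known. All members are named, up to 3 genes of each other list at the highest mean CPM (all of a list of 3), and the 4 genes most like Ighm, Igkc, Jchain and Igha, except for some genes that are not reported here. The rule also names the largest clonotype of an isotype. Pax5, Prdm1, Irf4, Sdc1, Derl3, Eaf2, Fkbp11, Igll1, Rag1, Rag2, Fcmr, Fcer2a, Fcgr2b, H2-Ea and the Y-linked genes were named after their values were seen. Of the 7 surrogate light chain and recombination genes listed, 5 were analysed. Lists for NK cells, monocytes and hepatocytes were summed and are given in the closing section. Alternatives were DESeq2 1.42.0 size factors, library totals, a fold of 2, a floor of 10 counts, shares per kb of exon (union of all exons, membrane ends included), MiXCR reads, a clone count of at least 2 and productive clonotypes.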

Additional observations from a re-analysis of the deposited data

Results flagged for a closer look

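The values of some members had opposite signs in maternal and recipient cells under the same contrast. The difference itself was not tested, since each side is 1 library against 1 library. In DC control pIUT against uninjected cells, Igha was at least 521-fold lower in the maternal libraries (0 against 1202 counts) and at least 16.4-fold higher in the recipient libraries (46 against 0). Jchain was at least 429-fold lower and at least 7.496-fold higher in the same pairs, the second of which was under the threshold with a floor of 10 counts (1.17 on the log2 scale). In DC-depleted pIUT against uninjected cells, Igha was at least 340.0-fold lower in maternal and at least 51.2-fold higher in recipient cells, and Jchain at least 280-fold lower and at least 41.8-fold higher. In DC-depleted against DC control pIUT, Ighd was 93.4-fold higher in maternal cells, from 61 against 1 count (a log2 fold change of 4.96 with the 1 count set to 3), and 1.22-fold lower in recipient cells (339 against 341 counts, interval 1.05 to 1.42), which is under the threshold and was −0.06 on the log2 scale with library totals. The maternal IUT libraries held Y-linked counts, and the recipient uninjected library missed 9.51% of genes common elsewhere. Recipient cells of pIUT pups may include BALB/c donor cells. The part of each of these in the directions above was not tested.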

How the results depend on the processing

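No paired analysis was possible because each comparison lies between 2 libraries of 1 origin, and maternal cells were not compared with recipient cells. Of 64 recomputed counts of called members, 59 were within 1.5 times the reported count. In maternal DC-depleted against DC control pIUT, the count of members at least 4-fold lower went from 0 to 1 (Ighm) with DESeq2 size factors, with library totals and with a threshold of 2. With a floor of 10 counts, 1 member in place of 2 was higher in recipient DC control pIUT against uninjected cells (without Jchain), and 1 in place of 2 in recipient DC-depleted against DC control pIUT (without Ighg2b). Of 147 recomputed fold changes of members, 145 kept their sign, and the exceptions were Ighm and Igkc in recipient DC-depleted against DC control pIUT with library totals. That scaling moved the median of all genes by −0.58 to 0.39 on the log2 scale, and DESeq2 size factors by −0.16 to 0.20.

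Per kb of exon, the share of Ighm became 85.9% in maternal uninjected, 78.3% in recipient uninjected and 97.85% in recipient DC-depleted pIUT cells. The switched share became 0.556% in maternal uninjected, 0.704% in recipient uninjected, 0.153% in recipient DC control pIUT and 0.666% in recipient DC-depleted pIUT cells. By MiXCR reads it was 0.918%, 2.06%, 0% and 0.419% in these libraries and 0% in recipient DC control mIUT, so that the like shares of recipient uninjected and DC-depleted pIUT cells came apart. All 16 switched shares of clonotypes stayed within their intervals. The causes were not tested. Low heavy-chain totals limit the maternal IUT libraries.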

Other observations

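Genes of immunoglobulin receptors and transport were also measured. Fcmr, the receptor for IgM, was at 912 CPM in maternal uninjected cells and at 0, 0 and 1.33 CPM in maternal DC control mIUT, DC control pIUT and DC-depleted pIUT. It was at 71.4, 2.30, 10.96 and 8.92 CPM in the recipient libraries. Fcer2a, the IgE receptor CD23 of B cells, was at 274, 0.0517, 0 and 0 CPM and at 69.4, 0, 0 and 0.365 CPM. Both were therefore highest in the uninjected library of each origin, as Ighd was. Fcgr3 and Fcer1g, an IgG receptor and its signalling chain in myeloid cells, were highest in the mIUT libraries, at 822 and 1077 CPM in maternal and 1841 and 1561 CPM in recipient cells. The 6 granulocyte genes also had their highest sums there, 111882 and 185725 CPM against 1351 to 32790 CPM in the other 6 libraries. Fcgrt, the neonatal Fc receptor that carries maternal IgG across epithelia, was at 1523 CPM in maternal DC control mIUT and between 12.97 and 158 CPM in the other 7 libraries. The other genes of the list had other patterns, such as Fcgr2b, an inhibitory IgG receptor, at 130, 135, 32.9 and 4.603 CPM in the maternal and 164, 80.3, 24.5 and 40.6 CPM in the recipient libraries. Of 10 genes tested in each maternal comparison with uninjected pups, 2, 0 and 0 were at least 4-fold higher and 5, 4 and 7 lower after DC control mIUT, DC control pIUT and DC-depleted pIUT, where 16.9%, 22.9% and 21.8% of all genes were higher and 34.3%, 22.5% and 24.1% lower. In recipient cells 2 of 9, 2 of 10 and 1 of 9 were higher, against 42.6%, 41.7% and 42.9%, and 3, 4 and 3 were lower, against 16.1%, 12.2% and 9.98%.

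Other lists also differed between the libraries. The 4 NK-cell genes summed to 502, 105, 26.6 and 1.12 CPM in maternal uninjected, DC control mIUT, DC control pIUT and DC-depleted pIUT, and to 18.8, 4.71, 116 and 143 CPM in the recipient libraries. The 6 erythroid genes summed to 210 CPM in recipient DC control mIUT and to between 20952 and 180138 CPM in the other 7. The 6 monocyte and macrophage genes summed to 1551 to 35648 CPM, and the 5 hepatocyte genes to 4059 CPM in maternal DC control mIUT and to 1160 CPM or less elsewhere. In the recipient libraries, in the same order, the hepatocyte sums were 1160, 25.5, 1.02 and 463.5 CPM and the T-cell sums 453, 620, 3362 and 824 CPM. The part of such shifts in the comparison of DC-depleted with DC control pIUT was not tested.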
